A study of Mus musculus with 6 samples.

Results

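The SR splicing factors and their TRA2 relatives were examined in A375 tumours grown under ZLD1039 or under vehicle. The genes were taken by human Ensembl identifier, 10 in all: SRSF1 (ENSG00000136450), SRSF2 (ENSG00000161547), SRSF3 (ENSG00000112081), SRSF4 (ENSG00000116350), SRSF5 (ENSG00000100650), SRSF6 (ENSG00000124193), SRSF7 (ENSG00000115875), SRSF11 (ENSG00000116754), TRA2A (ENSG00000164548) and TRA2B (ENSG00000136527). Of these, 9 were listed among the 15234 loci of the series, with 209 of its 175743 transcript events, and SRSF2 was not analysed here. The set was chosen by the measured abundance of a retained SRSF6 intron, which was listed in the ZLD1039 tumours and not in the vehicle tumours. The values of SRSF6 are therefore given as descriptions, and nothing is read from the 1 count of called events that includes it.

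A375 is an established human melanoma cell line, labelled wild type. The cells were implanted under the skin of BALB/c nude mice, which lack a thymus and keep only part of their immune cells. One group received ZLD1039, an inhibitor of the histone methyltransferase EZH2, by daily oral gavage (100 mg/kg) until day 27, and the other received vehicle. RNA was sequenced from 3 tumours of each group. The labels give 5 mice per group and do not say that each tumour came from its own mouse, so the spread behind each p-value is that between tumours, which may be technical in part. The labelled cell type was not checked against marker genes, because no table of human gene names was used here.

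SR proteins bind RNA through recognition motifs and carry a domain rich in arginine and serine, through which they help the splicing machinery to find exons. Most genes of the family also splice their own transcripts: they hold a conserved "poison" exon or an intron whose presence brings in an early stop codon, and such transcripts are retained in the nucleus or destroyed by nonsense-mediated decay. High SR protein favours the unproductive form, which keeps the protein level within bounds.

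The values are FPKM, fragments scaled to transcript length and sequencing depth, which allow genes of different length to be compared. An event that a tumour's data do not list was given the value 0. The files hold no counts, so the depth behind these values is unknown. The tumours listed 165 to 177 of the 209 events, and 143 events were listed in all 6. ZLD1039 tumour 2 stood apart from the rest over all loci, with a mean correlation of 0.919 with the other tumours, against 0.934 to 0.943 for the other 5. These are bulk samples, in which fewer cells of a type and less RNA per cell cannot be told apart. The labels name mouse, the host, as organism and mm10 as build. Positions are given as in the files, whose chromosome numbers and lengths are those known for human GRCh37.

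The abundance of these loci was not called different between the groups. With so few tumours per group this does not show equal levels. None of the 8 loci other than SRSF6 passed the threshold (limma on log2(FPKM + 1), Benjamini-Hochberg adjusted p under 0.05 over 10834 loci), where 0.0185% of all tested loci passed. An unadjusted p under 0.05 was found for 1 of them, SRSF5, and for 4.94% of all tested loci. The median log2 difference of the 8 was 0.09, against 0.02 over all loci tested. SRSF1, the founding member of the family and an oncogene in several tissues (locus 56066403 to 56084707 on chromosome 17, minus strand), was the most abundant at 127, 153 and 144 FPKM in ZLD1039 tumours 1, 2 and 3, and 143, 122 and 137 FPKM in vehicle tumours 1, 2 and 3. Its groups overlapped. SRSF3, the smallest SR protein, followed at 67.6 ± 8.36 FPKM in ZLD1039 tumours and 60.8 ± 5.49 FPKM in vehicle tumours (SD, n = 3 each). By mean over the 6 tumours TRA2B, SRSF11, SRSF6, SRSF5, SRSF7 and SRSF4 came next, at 48.7, 47.5, 44.2, 42.5, 42.0 and 40.2 FPKM, and TRA2A was last at 29.1 FPKM. The range of SRSF1 lay apart from that of SRSF3. All other neighbours in this order overlapped in their ranges over the tumours.

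**Figure D1:**
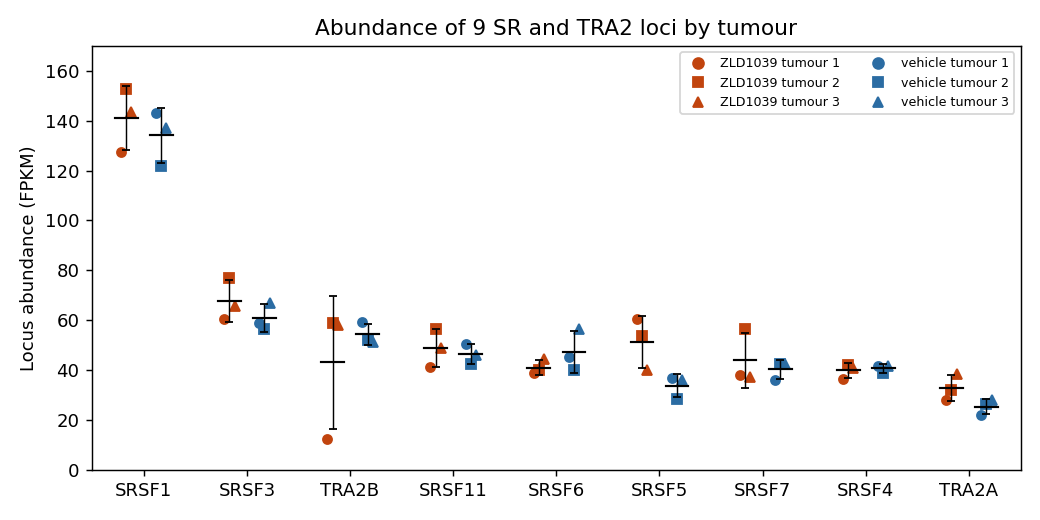
Abundance of the 9 listed loci in FPKM on the vertical axis, in order of their mean over all tumours, with ZLD1039 tumours in red on the left of each pair and vehicle tumours in blue on the right. Points are tumours, bars the mean and its SD (n = 3). SRSF5 and TRA2A lie higher in all ZLD1039 tumours, and TRA2B lies at 12.4 FPKM in ZLD1039 tumour 1.

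SRSF5, a splicing factor first described in rat as a gene induced by insulin (locus 70233810 to 70237822 on chromosome 14, plus strand), measured 60.4, 53.6 and 39.8 FPKM in ZLD1039 tumours 1, 2 and 3, against 36.8, 28.3 and 35.8 FPKM in the vehicle tumours. The groups did not overlap. The log2 difference was 0.58 (SE 0.20, 95% interval 0.11 to 1.06, limma, adjusted p = 0.88) and 0.54 without ZLD1039 tumour 2, and it did not pass the threshold. TRA2A, a serine and arginine rich factor related to the fly gene transformer-2 (locus 23544868 to 23571660 on chromosome 7, minus strand), measured 28.0, 32.1 and 38.4 FPKM in ZLD1039 tumours, against 22.0, 26.2 and 27.8 FPKM in vehicle tumours. The lowest ZLD1039 tumour lay just above the highest vehicle tumour, and the log2 difference of 0.36 (SE 0.18) did not pass (limma, adjusted p = 0.88). SRSF5 and TRA2A were thus 2 of these 8 loci without overlap and higher in ZLD1039 tumours, an order shown by 5.75% of all tested loci. None of the 8 showed the opposite order, found at 5.2% of all tested loci, and 10.9% of all tested loci lay without overlap in either direction.

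TRA2B, the close relative of TRA2A that binds AGAA-rich exons (locus 185633694 to 185655891 on chromosome 3, minus strand), measured 12.4, 58.7 and 58.2 FPKM in ZLD1039 tumours and 59.2, 52.1 and 51.4 FPKM in vehicle tumours. ZLD1039 tumour 1 alone was low. The log2 difference was -0.61 (SE 0.53, limma, adjusted p = 0.88), and it was 0.11 without that tumour. In the same tumour the leading start site of TRA2B (185655613 to 185655891) was at 0.28 FPKM, or 2.32% of its starts, while it carried 97.2 to 99.3% in the other 5 tumours.

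SRSF6 was listed in other forms in the ZLD1039 tumours, at overlapping levels of the locus. The locus (chromosome 20, 42086568 to 42089974, plus strand) measured 38.7, 39.9 and 44.3 FPKM in ZLD1039 tumours and 45.3, 40.2 and 56.6 FPKM in vehicle tumours, with overlap. SRSF6 encodes a splicing factor known to drive skin hyperplasia in mice when overproduced. Its splicing events all lie in a stretch between an exon of 149 bases (42087001 to 42087149) and an exon of 125 bases (42088411 to 42088535). The stretch is 1261 bases long and consists of a first intron of 643 bases, a cassette exon of 268 bases (42087793 to 42088060) and a second intron of 350 bases. The cassette exon is in the place of the family's poison exon in this gene, and its length is not a multiple of 3. The reading frame itself was not examined, since no human sequence was used here.

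**Figure D2:**
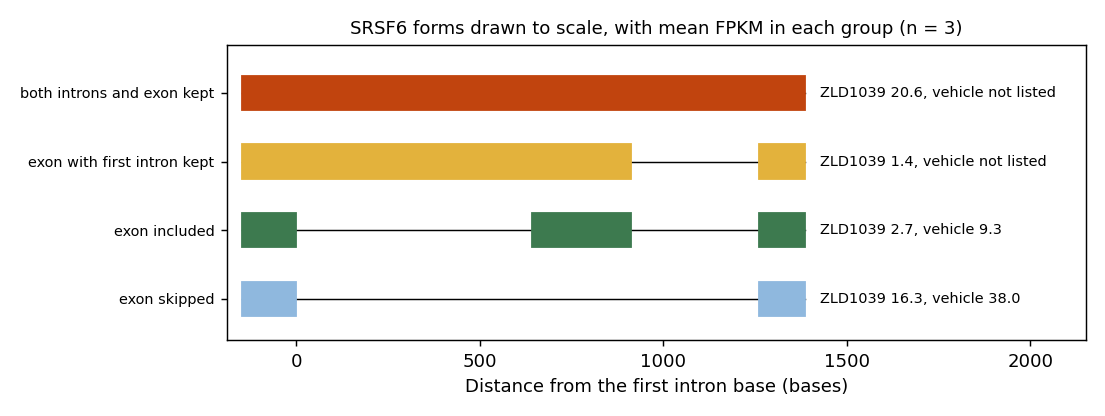
The forms of SRSF6 across the cassette exon, drawn to scale on a horizontal axis in bases from the first intron base. Boxes are exons, thin lines are spliced introns, and the mean FPKM of each form in each group is written at the right. The form that keeps the whole stretch averaged 20.6 FPKM in ZLD1039 tumours and was not listed in vehicle tumours.

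The form that kept the whole stretch, both introns with the exon between them, stood at 19.8, 18.8 and 23.1 FPKM in ZLD1039 tumours 1, 2 and 3 and was listed in no vehicle tumour. It made up 51.2, 47.1 and 52.1% of the locus in the ZLD1039 tumours. This is the event by which the gene was chosen. The spliced forms were lower in the same tumours. The form that skipped the exon stood at 16.4, 14.3 and 18.3 FPKM in ZLD1039 tumours, against 37.1, 34.9 and 42.0 FPKM in vehicle tumours, which is 42.3, 35.9 and 41.3% of the locus against 81.9, 87.0 and 74.3%. The groups did not overlap on either scale. The form with the exon included and both introns spliced stood at 2.54, 2.71 and 2.93 FPKM in ZLD1039 tumours, against 8.19, 5.22 and 14.6 FPKM in vehicle tumours. It too was lower in every ZLD1039 tumour. ZLD1039 tumour 2 alone listed a further form, with the exon and the first intron kept, at 4.06 FPKM.

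**Figure D3:**
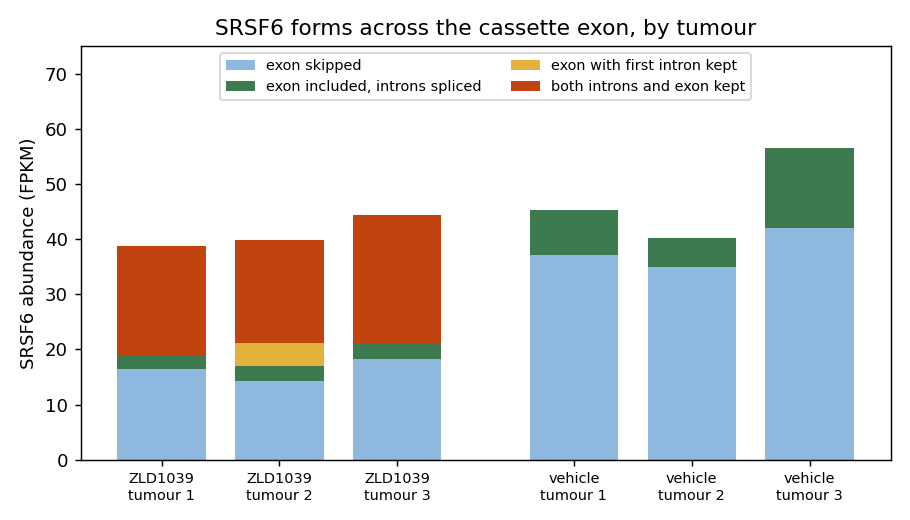
Stacked bars give the abundance of each SRSF6 form in FPKM for every tumour, with the ZLD1039 tumours on the left. The forms sum to the whole locus, 38.7 to 44.3 FPKM in ZLD1039 tumours and 40.2 to 56.6 FPKM in vehicle tumours. The retained form, in red, is present only in the ZLD1039 bars, where the form that skips the exon, in light blue, is shorter.

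The forms summed to the abundance of the locus in each tumour, so that a higher share of one form is a lower share of the others. Set against the exon-skipping form alone, inclusion of the SRSF6 exon was 13.4, 15.9 and 13.8% in ZLD1039 tumours and 18.1, 13.0 and 25.7% in vehicle tumours, and there the groups overlapped. As a share of the whole locus it was 6.55, 6.80 and 6.61% in ZLD1039 tumours and 18.1, 13.0 and 25.7% in vehicle tumours, without overlap. The means differed by -4.57 percentage points on the first scale and by -12.3 on the second. Since the retained form contains the exon as well, the forms that hold its sequence summed to 22.4, 25.6 and 26.0 FPKM in ZLD1039 tumours, against 8.19, 5.22 and 14.6 FPKM in vehicle tumours. All SRSF6 transcripts ended at the same site (42089343 to 42089974), and the leading start (42086568 to 42086780) carried 88.9 to 100.0% of the starts.

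The intron just inside the rule, that of SRSF6, had its lowest ZLD1039 value at 18.8 FPKM. The nearest introns of the 9 genes outside it were listed in a single ZLD1039 tumour each: the first intron of the same stretch of SRSF6, at 4.06 FPKM in tumour 2, and an intron of TRA2A (between 23545829 and 23547046 on chromosome 7), at 1.86 FPKM in tumour 1. Over the whole series, 18 events in 9 loci were at 5 FPKM or more in every ZLD1039 tumour and unlisted in every vehicle tumour, which is 0.0596% of the 30225 events at that level in all ZLD1039 tumours. The mirror image held for 8 events in 7 loci, or 0.0259% of 30903. Both SRSF6 events of the retained form were among the 18. Of the 18, 4 were retained intron events, and these include the 2 of SRSF6, which are the same exon listed under 2 event types. By mean FPKM the leading loci of the 18 were ENSG00000142156 (chromosome 21, 47420673 to 47421300), ENSG00000070756 (chromosome 8, 101733619 to 101733847), ENSG00000090621 (chromosome 1, 40029594 to 40030143), ENSG00000066322 (chromosome 1, 43830599 to 43830679) and then SRSF6. The leading loci of the mirror image were ENSG00000104872 (chromosome 19, 49950471 to 49950724), ENSG00000040633 (chromosome 17, 7141531 to 7141577), ENSG00000171680 (chromosome 1, 6579505 to 6580121), ENSG00000149782 (chromosome 11, 64035976 to 64036622) and ENSG00000140859 (chromosome 16, 57808892 to 57809031). All 5 of these were start or end sites.

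An intron that is listed in some tumours and not in others of the same group was common in these data. Among 780 intron-retaining exons that reached 5 FPKM in at least 1 tumour, 238 (30.5%) were both at that level in a tumour and unlisted in another of the same group. Listed in all ZLD1039 tumours and in no vehicle tumour were 6 of the 780, that of SRSF6 among them, and 1 showed the reverse. The 9 genes held 11 intron-retaining exons, of which 6 reached 5 FPKM and 1 was at that level in a tumour and unlisted in others of its group. That one lay in SRSF1 (intron 56082402 to 56082759 on chromosome 17) and stood at 22.6 FPKM in vehicle tumour 1 alone.

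SRSF5 also had a higher value for an intron-retaining form in every ZLD1039 tumour, although no test passed. Its intron of 1215 bases (70235968 to 70237184 on chromosome 14, plus strand) was kept in an exon that ran from 70235899 to 70237257. That exon stood at 46.3, 36.6 and 18.6 FPKM in ZLD1039 tumours 1, 2 and 3, against 8.31, 8.16 and 0.045 FPKM in vehicle tumours. All ZLD1039 tumours lay above all vehicle tumours. On the log2(FPKM + 1) scale the difference was 2.87 (SE 0.88, limma, adjusted p = 0.86 over 82894 events).

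The spliced counterpart lay the other way round. The transcripts that removed this intron and the one before it stood at 0.88, 0.047 and 0.16 FPKM in ZLD1039 tumours, against 20.4, 3.72 and 23.6 FPKM in vehicle tumours, again without overlap (log2 difference -3.36, SE 0.66, limma, adjusted p = 0.52). The short exon between the introns (70235899 to 70235968) stood at 1.02, 8.27 and 8.86 FPKM in ZLD1039 tumours and 21.3, 13.8 and 24.2 FPKM in vehicle tumours. Retention, the abundance with the intron over the sum with and without it, was 96.7, 97.9 and 98.9% in ZLD1039 tumours, against 28.9, 66.1 and 0.20% in vehicle tumours. The vehicle tumours thus differed widely among themselves. The sum with and without the intron left out transcripts that removed 70235968 to 70236228 instead. The main event of that kind stood at 0.11, 8.16 and 8.65 FPKM in ZLD1039 tumours, against 0.86, 8.41 and 0.57 FPKM in vehicle tumours. These percentages, and the difference between them, therefore cover only part of the transcripts that hold the short exon. The difference was 66.1 percentage points (SE 21.0, 95% interval 15.4 to 116.8, limma, adjusted p = 0.72 over 13274 exons, introns and runs), and 50.3 points without vehicle tumour 3. Retention of single introns was compared for 9 introns outside SRSF6. In 2 of them, in SRSF5 and SRSF7, all ZLD1039 values were higher, an order shown by 2.48% of all such introns. In none were all lower, as in 3.83% of all such introns. The order in SRSF7 rests on a lowest ZLD1039 value of 43.1% against a highest vehicle value of 42.3%. Counted as a run, the same SRSF7 stretch stood at 69.4, 74.9 and 68.8% in ZLD1039 tumours. The vehicle tumours stood at 76.9, 68.8 and 28.9%, with overlap.

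Summed over all intron-retaining exons and set against the locus, retention in SRSF5 was 77.8, 69.7 and 47.3% in ZLD1039 tumours and 22.6, 31.4 and 0.17% in vehicle tumours (exact two-sided permutation p = 0.1, the smallest that 3 tumours against 3 can give). In SRSF6 the same sum was 51.2, 57.3 and 52.1% in ZLD1039 tumours, and no retained intron event was listed in vehicle tumours. The sums leave out start events. In SRSF6 a first exon from 42086568 to 42087149 ran through to the end of the exon of 149 bases. It stood at 2.84 FPKM in ZLD1039 tumour 1 and at 4.47 FPKM in vehicle tumour 2. The other genes with retained introns did not separate between the groups. In SRSF7, which can also export messenger RNA, the sum was 36.2, 40.3 and 41.0% in ZLD1039 tumours and 37.5, 33.6 and 15.0% in vehicle tumours (exact two-sided permutation p = 0.2). In SRSF1 it was 18.8, 18.1 and 13.0% in ZLD1039 tumours and 33.2, 17.7 and 16.4% in vehicle tumours (exact p = 0.6). In TRA2A it was 47.4, 5.38 and 21.1% in ZLD1039 tumours and 30.0, 35.9 and 68.5% in vehicle tumours (exact p = 0.4). The values of TRA2A were widely spread in both groups. No retained intron event was listed for SRSF3, SRSF4, SRSF11 or TRA2B in any tumour.

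**Figure D4:**
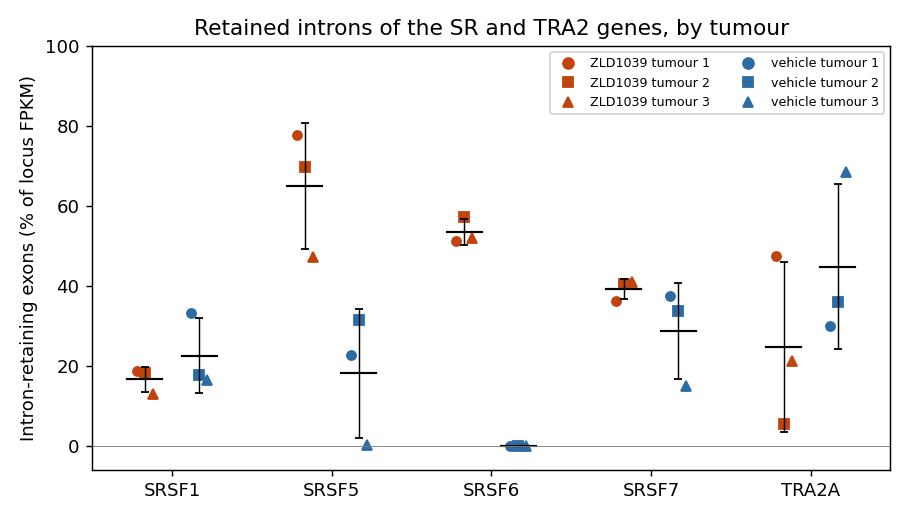
Abundance of the exons of all retained intron events as a percent of the locus on the vertical axis, for the 5 genes that list any. Start events are left out. ZLD1039 tumours are on the left of each pair. Points are tumours and bars the mean and its SD (n = 3). The groups are apart in SRSF5 and SRSF6 and overlap in SRSF1, SRSF7 and TRA2A.

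In SRSF6 and SRSF7 the retained stretch ran across a whole cassette exon, and the most abundant one of TRA2A joined such an exon to its neighbour. The stretches of SRSF5 and SRSF1 spanned none of the cassette exons described next. The SRSF7 stretch (38975795 to 38976671 on chromosome 2, minus strand) is 875 bases long, and the exon that keeps it stood at 13.7, 22.7 and 15.3 FPKM in ZLD1039 tumours and 13.5, 14.2 and 2.87 FPKM in vehicle tumours. Its retention was 43.1, 46.6 and 50.4% in ZLD1039 tumours and 42.3, 39.6 and 8.12% in vehicle tumours (difference 16.7 points, SE 17.7, limma, adjusted p = 0.72). Vehicle tumour 3 alone was low, and the other 5 tumours lay close together. The TRA2A exon that keeps the intron (23561326 to 23562051 on chromosome 7, minus strand) stood at 11.4, 1.73 and 8.11 FPKM in ZLD1039 tumours and 6.59, 9.38 and 19.0 FPKM in vehicle tumours. ZLD1039 tumour 2 was lowest and vehicle tumour 3 highest. In SRSF1 the retained stretch (56082402 to 56083162 on chromosome 17, minus strand) held a pair of introns, and the exon that kept both stood at 23.9, 27.6 and 18.6 FPKM in ZLD1039 tumours and 24.98, 21.6 and 22.5 FPKM in vehicle tumours, with overlap.

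The poison exon of SRSF3 had lower inclusion in every ZLD1039 tumour, without passing the test, and that of TRA2B did so in ZLD1039 tumours 2 and 3. The exons described here were picked after their values were seen. The exon of SRSF3 (36567598 to 36568053 on chromosome 6, plus strand, 456 bases) was included at 4.78, 11.05 and 5.00% in ZLD1039 tumours, against 15.9, 14.1 and 16.6% in vehicle tumours. No ZLD1039 tumour reached the lowest vehicle tumour. The difference was -8.60 percentage points (SE 4.45, 95% interval -19.3 to 2.14, limma, adjusted p = 0.72), and -10.7 points without ZLD1039 tumour 2. With 1 tumour left out it ranged from -10.7 to -7.52 points. The form that skips the exon stood at 56.4, 68.1 and 62.1 FPKM in ZLD1039 tumours and 47.6, 48.5 and 55.9 FPKM in vehicle tumours. The form with the exon stood at 2.83, 8.46 and 3.27 FPKM in ZLD1039 tumours. In vehicle tumours it stood at 8.98, 7.99 and 11.1 FPKM, with overlap.

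The exon of TRA2B (185649365 to 185649640, 276 bases) was included at 13.7 and 16.6% in ZLD1039 tumours 2 and 3, against 43.5, 24.0 and 27.9% in vehicle tumours. In ZLD1039 tumour 1 the value turned on the event counted. The event for the single exon was not listed there and the skipping form stood at 0.28 FPKM, which gives 0%, while an event that holds the exon together with its neighbour was listed at 1.63 FPKM. Counted by that event, inclusion was 85.5, 13.7 and 16.6% in ZLD1039 tumours and 43.5, 24.2 and 29.0% in vehicle tumours, with overlap, and the difference of the means was 6.38 points. As a share of the locus the same event made up 13.2, 13.6 and 16.5% in ZLD1039 tumours and 40.7, 23.6 and 28.8% in vehicle tumours, without overlap. In ZLD1039 tumour 1, however, 61.4% of the starts lay at 185644389 to 185646861 and 21.3% at 185641584 to 185643052. Both sites are downstream of the exon on the minus strand, so much of that locus value cannot hold the exon. Counting by the event with the neighbour was chosen after seeing the data. By the single-exon event the difference was -21.7 points (SE 9.86, 95% interval -45.5 to 2.13, limma, adjusted p = 0.72), -16.6 points without ZLD1039 tumour 1 and -23.5 points without ZLD1039 tumour 2. Of 8 singly skipped exons tested outside SRSF6, that of SRSF3 lay lower without overlap, an order found for 3.78% of all such exons, and that of TRA2B did so only by the single-exon event.

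The poison exon of SRSF7 (38976040 to 38976488, 449 bases) overlapped between the groups. It was included at 25.1, 22.6 and 31.6% in ZLD1039 tumours and 18.0, 22.95 and 17.9% in vehicle tumours, a difference of 6.81 points (SE 8.91, limma, adjusted p = 0.77). By the single-exon event the poison exon of TRA2A (23561751 to 23562051, 301 bases) was rarely included. So was a cassette exon of SRSF4 (29486376 to 29486570 on chromosome 1, minus strand, 195 bases). The same held for a cassette exon of SRSF11 (70697542 to 70697658 on chromosome 1, plus strand, 117 bases). For TRA2A inclusion was 0.76 to 2.66% in ZLD1039 tumours and 1.29 to 1.59% in vehicle tumours. The retained TRA2A exon described above contains this poison exon and is not counted there. That retained exon stood at 11.4, 1.73 and 8.11 FPKM in ZLD1039 tumours and 6.59, 9.38 and 19.0 FPKM in vehicle tumours. For SRSF4 inclusion was 0.26 to 1.38% in ZLD1039 tumours and 0.70 to 1.36% in vehicle tumours. For SRSF11 inclusion by the single-exon event stayed under 1% except in vehicle tumour 1, at 13.9%. A first exon of SRSF11 (70695747 to 70697658) contains this exon and is not counted there. It stood at 14.7, 10.3 and 13.4 FPKM in ZLD1039 tumours and 16.6, 10.2 and 11.9 FPKM in vehicle tumours.

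**Figure D5:**
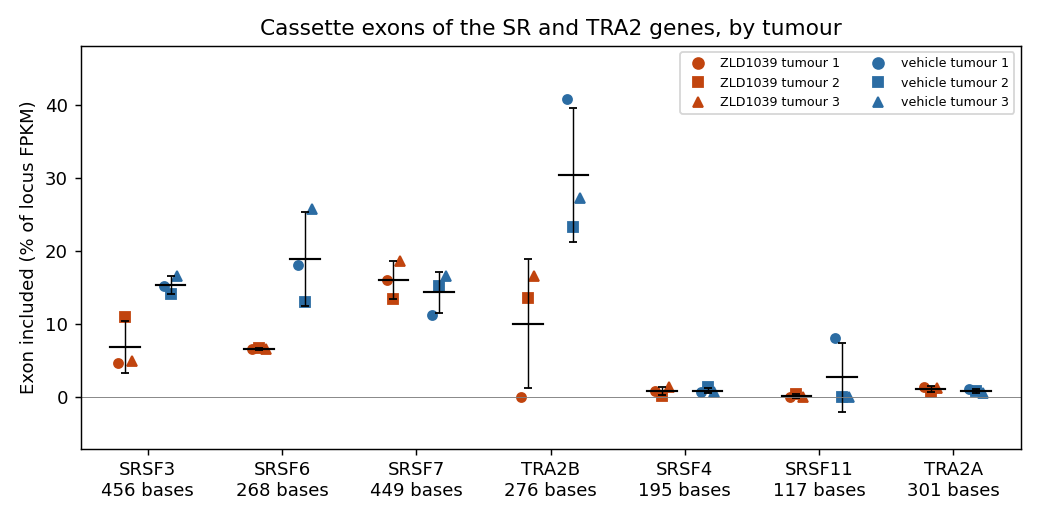
Abundance of the single-exon event with the cassette exon as a percent of the whole locus on the vertical axis, for 7 genes named with the length of the exon, ZLD1039 tumours on the left of each pair. Points are tumours and bars the mean and its SD (n = 3). The ZLD1039 tumours lie below the vehicle tumours in SRSF3, SRSF6 and TRA2B and overlap with them in the other 4 genes. In SRSF6 the locus value includes the retained form by which the gene was chosen, so nothing is read from its place here. Set against the exon-skipping form alone, the SRSF6 groups overlapped. TRA2B is at 0 in ZLD1039 tumour 1, where the event that adds the neighbouring exon makes up 13.2% of the locus. Most TRA2B starts in that tumour lie downstream of the exon.

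Other exons of the family were included nearly always or varied with single tumours. An exon of 90 bases in SRSF4 (29476615 to 29476704) was included at 91.5, 92.4 and 94.8% in ZLD1039 tumours and 99.7, 99.6 and 94.4% in vehicle tumours (difference -5.03 points, SE 2.79, limma, adjusted p = 0.72). Vehicle tumour 3 lay among the ZLD1039 tumours, and the other two lay above them. An exon of 60 bases in TRA2B (185637225 to 185637284) was included at 96.1 to 99.9% in ZLD1039 tumours and 99.9 to 100.0% in vehicle tumours. An exon of 36 bases in SRSF7 (38973286 to 38973321) was included at 99.88 to 99.95% in ZLD1039 tumours and at 99.9, 99.8 and 84.0% in vehicle tumours, so that vehicle tumour 3 was again the low one. In TRA2A an exon of 90 bases (23570800 to 23570889) was included at 0 to 4.39% in ZLD1039 tumours and at 0.32, 0 and 39.1% in vehicle tumours.

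Start and end sites of the family were shared by the groups. None of 14 start sites and 3 end sites of the genes other than SRSF6 passed the threshold for their share of the locus (limma), none had an unadjusted p under 0.05, and over the whole series 0% of 21321 start sites and 0% of 4610 end sites passed. SRSF1 started at 1 site (56084305 to 56084622) with 99.02 to 100.0% of its starts in every tumour, SRSF4 at 1 (29508158 to 29508499) with 97.1 to 99.1%, and SRSF7 at 1 (38978371 to 38978636) with 99.98 to 99.99%. SRSF11, a more distant relative, was less uniform. Its leading start (70671365 to 70671463) carried 49.4, 76.3 and 66.4% in ZLD1039 tumours and 57.7, 69.3 and 67.0% in vehicle tumours. In SRSF5 a start at 70233810 to 70234097 carried 2.32, 68.6 and 47.3% in ZLD1039 tumours and 23.3, 39.9 and 5.40% in vehicle tumours. The shares of SRSF11 and SRSF5 ranged more widely within the groups than between their means. A start near the 3′ end of SRSF5 (70237598 to 70237822) carried 10.7, 13.9 and 10.99% in ZLD1039 tumours. In vehicle tumours it carried 17.8, 17.8 and 19.5%, without overlap (difference -6.52 points, SE 5.91, limma, adjusted p = 0.76). Its abundance overlapped, at a mean of 6.09 FPKM in ZLD1039 tumours and 6.19 FPKM in vehicle tumours (log2 difference -0.035, SE 0.25, limma, adjusted p = 0.99). The whole SRSF5 locus was higher in every ZLD1039 tumour, so the lower share is not a lower abundance of this start. How many start sites of the series lay without overlap is not given here. The transcripts of SRSF3 ended at 36569739 to 36573377 with at least 70.5% of the ends in 5 tumours, while ZLD1039 tumour 3 had 29.3% and vehicle tumour 1 had 79.0% at a site further on (36606884 to 36607242). TRA2A ended at 23544868 to 23545188, at 28.0, 30.0 and 38.4 FPKM in ZLD1039 tumours and 22.0, 26.2 and 22.2 FPKM in vehicle tumours.

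Counted over all their events, the genes gave few calls. Of 122 events tested, 2 passed the threshold (limma, adjusted p under 0.05), where 0.0362% of all tested events passed. Both were the SRSF6 events that chose the gene, so nothing is read from that count. Among the 108 tested events of the other 8 genes none passed, and 13 had an unadjusted p under 0.05, found for 4.7% of all tested events. Without overlap, 6 of the 108 were higher in ZLD1039 tumours, an order shown by 5.36% of all tested events, and 7 were lower, as were 4.97%. Together these are 13 events (12.0%), against 10.3% of all tested events. SRSF5 held 9 of the 13, TRA2B 2, SRSF3 1 and TRA2A 1, and events of 1 transcript share their values.

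Of 19 exons, introns and runs tested in the other 8 genes none passed the threshold (limma), where 0% of 13274 did. An unadjusted p under 0.05 was found for 1 of them, the SRSF5 intron, and for 2.09% of all. Without overlap, SRSF5 and SRSF7 gave 1 each with higher ZLD1039 values, an order shown by 3.35% of all, and SRSF3 and TRA2B gave 1 each with lower values, as in 3.77%. That of TRA2B rests on the value of 0 in ZLD1039 tumour 1. That of SRSF7 rests on 43.1% against 42.3%, and the same stretch counted as a run overlapped. Together these are 4 of 19, against 7.12% of all tested items.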

How the data were processed

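RNA libraries of 6 tumours were made with a SMARTer mRNA kit after bead purification, per the labels' protocols. Per the file headers, the authors deposited FPKM values of transcript events, 1 file per tumour. Tools listed in the submitters' processing notes are HTSeq 0.6.1 and bcl2fastq 2.17.1.14, with mm10 as build. Aligner, assembler, event caller and strand setting: not given in the sources used here. Positions are not those of mm10: chromosome 1 reaches 249214145, past the last mm10 gene end at 195323493, and chromosomes 20, 21 and 22 occur. Processed pseudogenes, antisense transcripts and the mouse copies of these genes in host cells could share reads with these genes. How far host reads enter the values was not tested.

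Groups and replicate numbers came from the titles. Events were matched by their event identifier. A locus took the largest of its summed starts, summed ends and largest event. Inclusion and retention are FPKM with the exon or intron over FPKM with plus without it. Items averaging 1 FPKM or more in a group (for shares, a mean total of at least 1 FPKM, a total above 0 in all tumours and a mean share over 1% and under 99%) were fitted with limma 3.58.1 in R 4.3.3, using a trended prior variance, and adjusted over all items by the Benjamini-Hochberg method at 0.05. Abundances were taken as log2(FPKM + 1), which understates changes of low values. Single sums were compared by exact permutation (SciPy 1.17.1). The fits were tested on simulated data.

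All 10 genes were named, with their called events, the SRSF6 intron, their most abundant retained intron and skipped exon, leading starts and ends, and the 5 largest differences in percent. These genes and lists were chosen with earlier results of these data known. No human sequence or gene name table was used, so the planned lists of other splicing genes and cell type markers were not analysed here.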

Additional observations from a re-analysis of the deposited data

How the results depend on the processing

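Of the 4 counts of called items, that of events moved from 2 to 0 with a replicate block. It ranged from 0 to 2 with 1 tumour left out, and was 0 without ZLD1039 tumour 2, ZLD1039 tumour 3 or vehicle tumour 3. In the main fit its 2 events were the SRSF6 events that chose the gene, so nothing is read from this count. The count of exons and introns moved from 0 to 2 without the mean-variance trend and to 2 on a log2 ratio scale, in both cases the SRSF6 stretch by which the gene was chosen. Counts of called loci and sites of these genes were 0 in all settings run (limma). The replicate numbers are shared by the groups, but same-numbered tumours did not deviate together (correlations -0.03, 0.02 and -0.06). No tumour correlated best with its own number. The retained SRSF6 form differed by 19.3 to 21.4 FPKM with 1 tumour left out and was the same when ends could differ by 10 bases. Since it was chosen for being listed in the ZLD1039 tumours only, this range tests nothing. The difference in SRSF6 exon inclusion was -4.57 points, -12.3 as a share of the locus (chosen after seeing the data), and -7.54 to -1.18 with 1 tumour left out. Of the other values followed, 154 of 160 kept their sign and their side of the threshold. The difference in TRA2B exon inclusion, -21.7 points, turned to 6.38 when the exon was counted in the event that adds its neighbour (chosen after seeing the data), with ZLD1039 tumour 1 at 85.5% in place of 0%. The log2 difference of SRSF4 turned to 0.015 with summed start events. Leaving out single tumours gave log2 differences of -0.070 to 0.030 for SRSF4, -0.042 to 0.18 for SRSF11, -0.092 to 0.20 for SRSF7 and -0.97 to 0.11 for TRA2B. The cause was not tested. Summed retention differed by 37.9 to 55.7 points for SRSF5, 51.6 to 54.7 for SRSF6 and 3.63 to 14.9 for SRSF7. For SRSF1 it differed by -8.87 to -0.45 points and for TRA2A by -31.5 to -8.31. The SRSF6 sum holds the form by which the gene was chosen, so its range tests nothing. Depth is unknown and limits every low value.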
